A study of Mus musculus with 12 samples.

Results

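The 4 Hox gene clusters were described through 38 homeobox genes: 10 in HoxA from Hoxa2 to Hoxa13, 10 in HoxB from Hoxb1 to Hoxb13, 9 in HoxC from Hoxc4 to Hoxc13 and 9 in HoxD from Hoxd1 to Hoxd13. Their peaks were taken as every peak overlapping one of 4 windows of the mouse genome build GRCm39 by at least 1 bp. The windows were chr6:52120000-52250000 for HoxA (130 kb), chr11:96070000-96280000 for HoxB (210 kb), chr15:102820000-102960000 for HoxC (140 kb) and chr2:74480000-74610000 for HoxD (130 kb), 610 kb in all. For H3K4me3 the windows held 40 of 19033 and 43 of 19480 peaks in the 2 del-cIDR libraries, and 48 of 19677 and 47 of 19881 in the 2 wild-type (WT) libraries. For H3K27ac they held 6 of 28853 and 11 of 33460 peaks in del-cIDR, and 5 of 25804 and 4 of 23407 in WT. For H3K9me3 they held 2 of 36766 and 1 of 40741 peaks in del-cIDR, and 0 of 21705 and 1 of 43785 in WT. No peak was chosen for its height, width or difference between genotypes.

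The study profiled histone marks in E14TG2a cells, an established line of mouse embryonic stem cells, that were either WT or carried an Alkbh5 allele labelled del-cIDR. Alkbh5 encodes an RNA demethylase that removes N6-methyladenosine, and the series title places the allele in a study of intrinsically disordered protein regions. CUT&Tag, in which an antibody directs a transposase to cut and tag the DNA around a mark, was used for H3K4me3 and H3K27ac. CUT&RUN, in which an antibody directs a nuclease to release that DNA, was used for H3K9me3. Both genotypes were grown in serum with LIF, a cytokine that keeps stem cells undifferentiated, the MEK inhibitor PD0325901 and the GSK3 inhibitor CHIR99021. There were 2 libraries per genotype and mark, 12 in all, and the labels do not say whether the 2 came from separate cultures or clones, so the p-values cover only the spread of these libraries and that spread may be technical in origin. Only peak lists were analysed here, with no read counts, so the depth behind each list is unknown.

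Hox genes encode homeodomain transcription factors that give cells along the head-to-tail axis of the embryo their regional identity. Within a cluster, the low-numbered genes are switched on earlier and nearer the head, and the high-numbered genes later and nearer the tail. In embryonic stem cells the clusters are known as bivalent chromatin: promoters rich in CG dinucleotides carry H3K4me3, a mark of promoters, together with H3K27me3, the mark laid down by Polycomb repressive complex 2, and the genes are mostly silent. H3K27ac marks active promoters and enhancers, and H3K9me3 marks heterochromatin. H3K27me3 was not measured in these libraries.

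The 4 promoter sequences printed here show how CG content varied among Hox promoters, with 1 gene per cluster, the one with the most CG among the promoters of its cluster that had a sequence. HoxC had just 1 such promoter, Hoxc4, and HoxB had 3. Each is the 250 bases before the transcription start, 5′ to 3′ on the strand of the gene, from RefSeq on GRCm38.p6, with every CG in capitals.
Hoxa13: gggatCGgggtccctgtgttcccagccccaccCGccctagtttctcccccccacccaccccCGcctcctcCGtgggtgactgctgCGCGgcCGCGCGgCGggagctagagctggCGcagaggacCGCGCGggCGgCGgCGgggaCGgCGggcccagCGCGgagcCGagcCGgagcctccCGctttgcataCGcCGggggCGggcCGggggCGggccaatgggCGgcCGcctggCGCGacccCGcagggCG
Hoxb4: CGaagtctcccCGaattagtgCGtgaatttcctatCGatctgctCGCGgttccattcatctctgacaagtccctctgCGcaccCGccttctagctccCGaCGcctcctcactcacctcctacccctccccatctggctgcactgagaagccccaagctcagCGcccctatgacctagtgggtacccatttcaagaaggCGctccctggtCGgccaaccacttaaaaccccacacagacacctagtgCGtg
Hoxc4: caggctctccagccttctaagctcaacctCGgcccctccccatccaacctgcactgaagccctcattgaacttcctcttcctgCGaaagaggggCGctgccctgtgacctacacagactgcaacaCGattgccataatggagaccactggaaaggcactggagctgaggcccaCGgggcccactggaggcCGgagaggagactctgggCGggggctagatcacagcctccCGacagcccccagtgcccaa
Hoxd13: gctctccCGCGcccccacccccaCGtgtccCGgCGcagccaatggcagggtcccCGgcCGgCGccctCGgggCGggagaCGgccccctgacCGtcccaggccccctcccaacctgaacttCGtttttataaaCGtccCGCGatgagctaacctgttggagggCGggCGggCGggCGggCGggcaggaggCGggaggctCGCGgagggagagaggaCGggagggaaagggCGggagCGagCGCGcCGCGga
The Hoxa13 sequence lies at chr6:52260881-52261130 on the minus strand and holds 35 CG. The Hoxd13 sequence lies at chr2:74667975-74668224 on the plus strand and holds 31, the Hoxb4 sequence at chr11:96318017-96318266 on the plus strand holds 14, and the Hoxc4 sequence at chr15:103034145-103034394 on the plus strand holds 8, the fewest of these. Hoxa13 and Hoxd13, the last genes of their clusters, pattern the limb tips and the tail end of the trunk, and Hoxb4 and Hoxc4 act nearer the head. All 38 genes were in the RefSeq gene table and 22 had a promoter sequence, 24 sequences in all. Over these 24 the median was 12.5 CG (range 2 to 35) in 250 bases, against a median of 6 over all 32851 promoters, and 15 of the 24 held at least 10 CG, as did 37.8% of all promoters. The letters CG read the same on both strands, so each was counted once. These sequences are on GRCm38.p6 and the peaks on GRCm39, so no peak was matched to a promoter or a gene, and regions are given by their position and by their distance from the window edge at the low-numbered end of the cluster.

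H3K4me3 peaks were dense across the Hox windows. It covered 6.37% and 7.23% of the windows in the 2 del-cIDR libraries and 7.75% and 7.51% in the 2 WT libraries, against 0.724% to 0.755% of all chromosomes, a 9.67-fold difference (mean log2 ratio 3.27 ± 0.10, SD, n = 4). It was higher in 4 of 4 libraries, and the exact two-sided sign-flip test over the libraries gave p = 0.13, the smallest that 4 libraries allow. Per 100 kb the windows held 6.56 to 7.87 peaks and all chromosomes 0.700 to 0.731. The 500 kb on either side of each window held between 1.63 and 1.68 peaks per 100 kb over all 8 flanks. The contrast was sharpest at HoxD, where the 1000 kb of flanks together held 3 or 4 H3K4me3 peaks in each library (0.30 to 0.40 per 100 kb) and the 130 kb window held 11, 11, 12 and 13. The flanks of HoxC held 29 to 31.

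In the map of peaks the 4 H3K4me3 libraries shared most of their narrow peaks in HoxA, HoxC and HoxD, and fewer in HoxB.

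**Figure D1:**
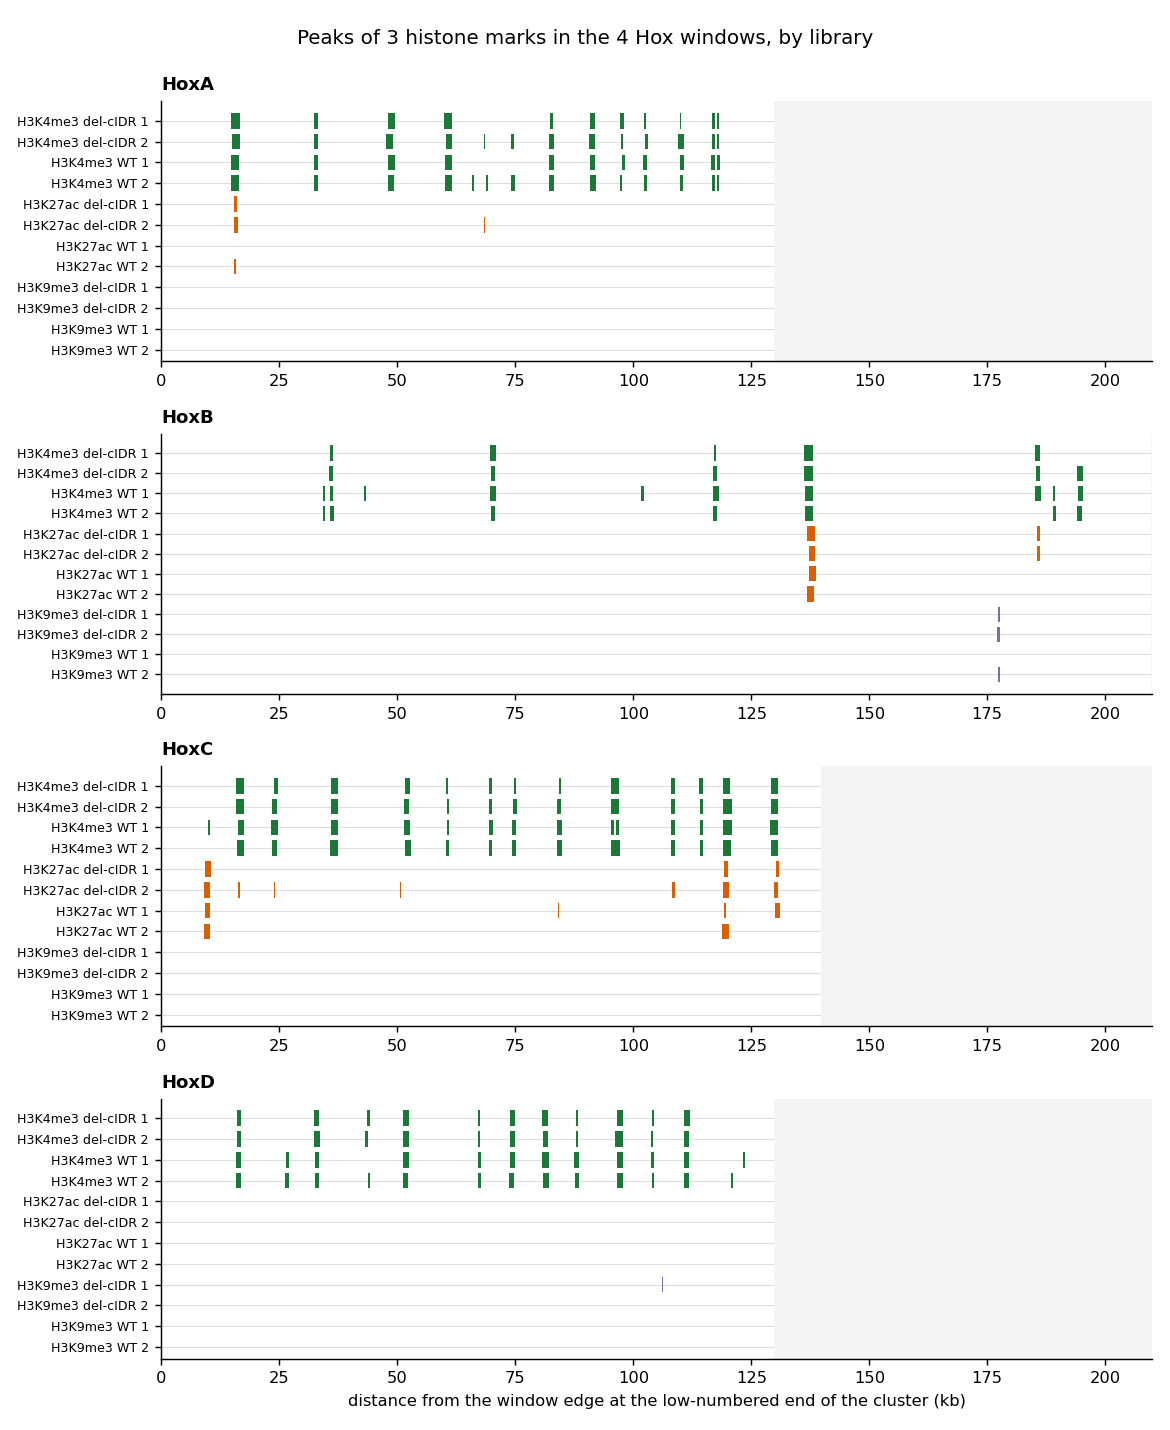
Each bar is a peak in 1 of 12 libraries (rows, coloured by mark), and the horizontal axis is the distance in kb from the window edge at the low-numbered end of the cluster; shading lies beyond the window. HoxA, HoxC and HoxD hold 11 to 15 H3K4me3 peaks per library, HoxB 5 to 10 in a longer window, and HoxD holds no H3K27ac peak.

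The Hox H3K4me3 peaks were short and of low rank for this mark. In the order del-cIDR 1, del-cIDR 2, WT 1 and WT 2, which holds for every run of 4 values from here on, the median width was 912.5, 899, 945.5 and 953 bp in the windows and 972, 989, 968 and 971 bp in the rest of each list. The Hox median was 0.951 times the rest (log2 -0.07 ± 0.05, SD, n = 4; lower in 4 of 4 libraries; exact sign-flip p = 0.13). None of the Hox peaks reached 2000 bp, while 3.77% to 4.67% of the other H3K4me3 peaks did, and the widest Hox peak measured 1952 bp. The median fold enrichment, the authors' ratio of signal at the peak to the caller's background, was 7.08, 6.08, 6.77 and 6.54 in the windows and 8.86, 8.65, 8.69 and 8.59 elsewhere. The median of the authors' −log10 q, which grows as a peak becomes less likely under that background, was 14, 12, 17.3 and 14.7 in the windows and 34.6, 34.9, 31.7 and 32.4 elsewhere. Both measures were lower in the windows in all 4 libraries.

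Merging overlapping peaks of the 4 libraries gave 53 H3K4me3 regions: 15 in HoxA, 10 in HoxB, 14 in HoxC and 14 in HoxD. Of these, 38 (71.7%) had a peak in all 4 libraries, close to the 68.1% of all 23623 H3K4me3 regions of the genome. The shared regions numbered 11 of 15 in HoxA, 4 of 10 in HoxB, 13 of 14 in HoxC and 10 of 14 in HoxD. To place them among the others, each shared region was ranked in each library by its −log10 p among the 16093 regions shared by all 4 libraries, as a percentile from 0 to 100. By the mean of its 4 percentiles, 34 of the 38 Hox regions lay under 50, with a median of 24.0 and a range from 2.23 to 96.2.

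HoxC, whose genes act mainly in the trunk and the limbs, had the largest share of its window under H3K4me3: 9.66%, 10.7%, 11.2% and 10.8%. Its 13 shared regions followed each other at a median gap of 8.22 kb, with no gap above 13.9 kb. The 3 with the largest covered length were chr15:102839092-102841048, at 120 kb from the low-numbered edge, chr15:102862882-102864814 at 96.2 kb and chr15:102922519-102924201 at 36.6 kb. The first covered 1516, 1848, 1857 and 1614 bp and had folds of 4.74, 4.94, 5.46 and 5.56. The second covered 1669, 1753, 1412 and 1893 bp and the third 1505, 1624, 1505 and 1662 bp, so that all 3 had a similar length in every library. The strongest HoxC region by −log10 q, named after its values were seen, was chr15:102829372-102830988 at 130 kb from the low-numbered edge, near the Hoxc13 end. It had −log10 q values of 162, 187, 153 and 183 and folds of 9.22, 9.03, 9.0 and 9.64, and it stood at percentiles 86.7, 87.2, 86.7 and 89.7. The other 12 had mean percentiles under 50.

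HoxA came next by the mean of the 4 libraries, though not in WT library 1, with 7.91%, 9.17%, 8.79% and 9.42% of its window covered and 11, 13, 11 and 14 peaks. Its 11 shared regions spanned 104 kb at a median gap of 7.01 kb. The 3 with the largest covered length all lay in the low-numbered part of the window. At chr6:52134668-52136616, 15.6 kb from that edge, 1804, 1778, 1723 and 1696 bp were covered, with −log10 q of 44.1, 61.0, 52.4 and 66.0. At chr6:52179878-52181539, 60.7 kb from the edge, it was 39.7, 37.2, 65.7 and 67.9. At chr6:52167616-52169400, 48.5 kb from the edge, it was 10.2, 8.48, 10.5 and 14.7. Within each library the third of these had a much lower −log10 q than the other 2. Toward the Hoxa13 end the shared regions were shorter, with mean covered lengths of 544 to 792 bp for the last 5.

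HoxD, whose high-numbered genes pattern the limbs and the genital region, had 7.54%, 8.08%, 8.91% and 9.0% of its window covered. Its 10 shared regions had a median gap of 6.35 kb, and all 10 had a mean percentile under 50, with a highest value of 41.0. The 3 with the largest covered length were chr2:74512119-74513888 at 97.0 kb from the low-numbered edge, chr2:74557514-74558922 at 51.8 kb and chr2:74527844-74529337 at 81.4 kb. Their mean covered lengths were 1368, 1261 and 1253 bp. No HoxD region had a −log10 q above 49.9 in any library, whereas HoxA, HoxB and HoxC each had at least 1 above it.

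HoxB was the sparsest cluster. H3K4me3 covered 2.49%, 3.18%, 4.09% and 3.23% of its 210 kb window, with 5, 6, 10 and 7 peaks, and its 4 shared regions were separated by a median of 33.2 kb and at most 46.0 kb. One of the 4 was the strongest Hox site of the study by −log10 q, though not by fold. This region, chr11:96141856-96143807, lay 137 kb from the low-numbered edge and covered 1882, 1952, 1702 and 1843 bp. It had −log10 q values of 234, 304, 218 and 236 and stood at percentiles 96.0, 97.5, 95.6 and 95.5. Its folds of 8.71, 8.84, 9.0 and 8.71 were close to the median of the rest of each list. The next 2 by length, chr11:96209175-96210341 and chr11:96161884-96163212, had −log10 q of 16.1, 35.1, 23.6 and 29.5 and of 9.35, 14.7, 16.8 and 16.9. The remaining 6 HoxB regions lacked a peak in at least 1 library, a larger share than in the other clusters.

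**Figure D2:**
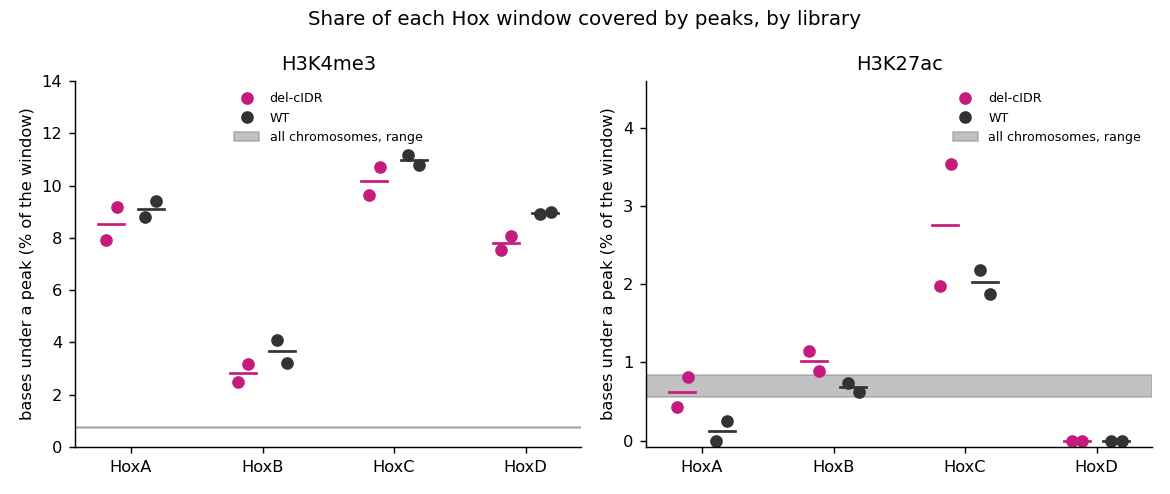
The vertical axes give the bases under a peak as a percent of each window, for H3K4me3 (left) and H3K27ac (right); points are the 2 libraries of a genotype, short lines their mean, and the grey band the range over all chromosomes in the 4 libraries. H3K4me3 lies above the grey band in every cluster and library, HoxB lowest, while H3K27ac is highest in HoxC and 0 in HoxD.

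H3K27ac peaks in the Hox windows numbered 4 to 11 per library, and none was listed in HoxD. There were 6, 11, 5 and 4 peaks: 1, 2, 0 and 1 in HoxA, 2, 2, 1 and 1 in HoxB, 3, 7, 4 and 2 in HoxC, and 0 in all 4 libraries in HoxD. The mark covered 0.940%, 1.29%, 0.755% and 0.700% of the windows and 0.751%, 0.835%, 0.648% and 0.556% of all chromosomes, a 1.30-fold difference (mean log2 0.38 ± 0.18, SD, n = 4; higher in 4 of 4 libraries; exact sign-flip p = 0.13). HoxC held more covered bases than any other cluster in 4 of 4 libraries, with 1.97%, 3.54%, 2.18% and 1.88% of its window covered. HoxB also lay above the share of all chromosomes in each library, with 1.15%, 0.885%, 0.741% and 0.625%. HoxA lay below it in 4 of 4 libraries, with 0.426%, 0.818%, 0% and 0.250%, and HoxD had 0%. The 500 kb flanks held 1.75 to 2.13 H3K27ac peaks per 100 kb, the windows 0.656 to 1.80 and all chromosomes 0.860 to 1.23. The windows held more than all chromosomes in del-cIDR library 2, 1.80 against 1.23, and fewer in the other libraries. Flanks of HoxD were the poorest, with 4 to 6 H3K27ac peaks in each library (0.40 to 0.60 per 100 kb), so its surroundings also held few. The Hox H3K27ac peaks were wider than the rest, with medians of 834, 703, 1070 and 1237 bp against 596, 569, 573 and 545 bp, a ratio of 1.65 (log2 0.72 ± 0.40, SD, n = 4; wider in 4 of 4 libraries; exact sign-flip p = 0.13). These medians rest on 4 to 11 peaks per library.

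The 12 merged H3K27ac regions of the windows comprised 2 in HoxA, 2 in HoxB and 8 in HoxC. A peak in all 4 libraries was found at 3 of the 12 (25%), beside 26.7% of all 50439 H3K27ac regions. One was chr11:96141271-96143119 in HoxB, at the strongest H3K4me3 region, with 1608, 1372, 1556 and 1312 bp covered, folds of 6.46, 6.54, 7.27 and 7.16 and −log10 q of 19.8, 20.6, 20.8 and 19.9. The second was chr15:102839718-102841186 in HoxC, at the longest HoxC H3K4me3 region, with 861, 1206, 453 and 1469 bp and −log10 q of 11.6, 8.64, 3.03 and 6.17. The third was chr15:102949585-102951030, 9.69 kb from the low-numbered edge of HoxC, with 1287, 1282, 1185 and 1162 bp and −log10 q of 13.6, 12.8, 12 and 10.5. It was the one shared H3K27ac site of the windows with little H3K4me3: a peak of 508 bp was called there in WT library 1 and in no other. The first and the third had nearly equal length in all 4 libraries, and the second varied more than 3-fold within WT.

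A peak in 3 of 4 libraries was found at 2 further sites. At chr15:102828912-102830127 in HoxC, overlapping the strongest HoxC H3K4me3 region, 616, 792, 1070 and 0 bp were covered. At chr6:52135331-52136110 in HoxA, within the longest HoxA H3K4me3 region, 554, 780, 0 and 325 bp were covered. The other HoxA site, chr6:52188366-52188649, had 284 bp in del-cIDR library 2 alone. Of the 6 regions called in a single library, 5 were in del-cIDR library 2, whose H3K27ac list is the longest of the 4.

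Most Hox H3K4me3 regions had no H3K27ac peak in any library. Of the 53 regions, 11 (20.8%) overlapped one in at least 1 library, against 69.4% of the 23570 regions elsewhere. Without del-cIDR library 2 the Hox share was 13.5%, and the share elsewhere was not computed without that library. Among the 38 shared regions the count was 8 (21.1%) against 77.9% elsewhere, and 2 of 38 (5.26%) against 41.8% for H3K27ac in all 4 libraries. By cluster the count was 1 of 11 in HoxA, 1 of 4 in HoxB, 6 of 13 in HoxC and 0 of 10 in HoxD. Because the Hox regions rank low in H3K4me3, and strong H3K4me3 regions more often have H3K27ac, the shares were set side by side within 4 equal bands of the H3K4me3 percentile. In the weakest band 2 of 19 Hox regions had H3K27ac, beside 57.2% of the others, and in the next 3 of 15, beside 67.9%. In the third band it was 1 of 2, beside 88.3%, and in the strongest band 2 of 2, beside 98.7%. The gap appeared in the 2 lower bands, where 34 of the 38 regions lay. With bands of the fold percentile instead, the counts were 3 of 21 beside 64.8%, 5 of 15 beside 71.3% and 0 of 2 beside 82.5%, and no Hox region was in the strongest band, so that the H3K27ac at the top regions appears under the −log10 p ranking only.

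**Figure D3:**
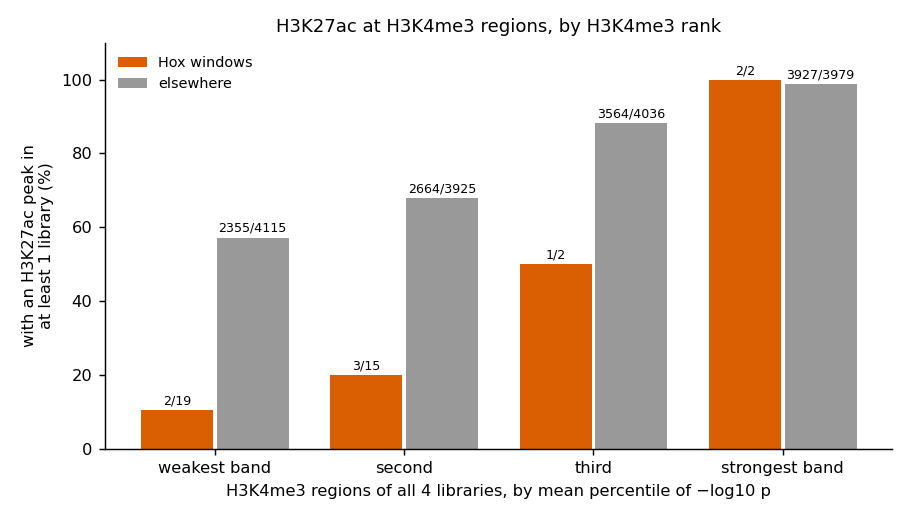
Bars give the percent of H3K4me3 regions shared by all 4 libraries that overlap an H3K27ac peak in at least 1 library, by 4 equal bands of the mean H3K4me3 percentile, for the Hox windows and for all other regions; the fraction above each bar is the count. The Hox bars stand at 2/19 and 3/15 in the 2 lower bands and 2/2 in the strongest.

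H3K9me3 was nearly missing from the windows. HoxA and HoxC had no H3K9me3 peak in any of the 4 libraries. In HoxB a single region, chr11:96102216-96102926, was covered for 594, 594, 0 and 259 bp, with folds of 3.60, 3.76 and 3.66 and −log10 q of 1.63, 1.92 and 1.71 in the 3 libraries that had it. In HoxD a 161 bp peak at chr2:74503742-74503902 was called in del-cIDR library 1 alone, with a fold of 3.52. The medians elsewhere were folds of 3.52, 3.47 and 3.47 and −log10 q of 1.81, 1.97 and 1.80 in those 3 libraries, so the 4 Hox peaks had folds close to or above the median and −log10 q slightly below it. WT library 1, which had none, is also the shortest H3K9me3 list, with 21705 peaks. Coverage was 0.124%, 0.0974%, 0% and 0.0425% of the windows and 0.980%, 1.29%, 0.372% and 1.13% of all chromosomes. None of the 53 H3K4me3 regions overlapped H3K9me3, beside 3.05% elsewhere. Neither H3K9me3 region was found in all 4 libraries or in both libraries of 1 genotype alone, where the shares over all 61706 regions were 23.4% for all 4, 4.51% for del-cIDR alone and 0.955% for WT alone.

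The genotypes were compared for the number and length of peaks. For H3K4me3 the del-cIDR libraries averaged 41.5 ± 2.12 peaks in the windows and the WT libraries 47.5 ± 0.71 (SD, 2 libraries each), and the exact two-sided permutation test gave p = 0.333, which is the lowest value 2 against 2 can reach. The covered length was 41.5 ± 3.72 kb against 46.5 ± 1.0 kb (SD, 2 libraries each), also with an exact permutation p of 0.333. Neither pair of groups overlapped, with both del-cIDR libraries lower. The difference in length was -2.45 kb without del-cIDR library 1 and -7.71 kb without del-cIDR library 2, against -5.08 kb with all 4. Both del-cIDR lists of this mark are shorter genome-wide than both WT lists. With all 4 lists limited to 19033 peaks the differences were -4.5 peaks and -4.46 kb, against -6 peaks and -5.08 kb. The part of list length was not tested further. By cluster, covered length in HoxD was 10.2 ± 0.50 kb in del-cIDR and 11.6 ± 0.08 kb in WT, and in HoxC 14.3 ± 1.04 and 15.4 ± 0.39 kb (exact permutation p = 0.333 each, n = 2 per group). In HoxB it was 5.95 ± 1.02 and 7.69 ± 1.28 kb, again without overlap, and in HoxA 11.1 ± 1.16 and 11.8 ± 0.58 kb, with overlap (exact permutation p = 0.333 and 0.667, n = 2 per group). The numbers of peaks overlapped or tied between genotypes in HoxA and HoxC and did not in HoxB and HoxD.

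H3K27ac went the other way in number. The windows had 8.5 ± 3.54 peaks over 6.80 ± 1.52 kb in the del-cIDR libraries, against 4.5 ± 0.71 peaks over 4.44 ± 0.24 kb in the WT libraries (SD, 2 libraries each; p = 0.333 for both by the exact permutation test). Both del-cIDR lists of this mark are longer genome-wide than both WT lists, and their part in the difference was not tested beyond limiting all 4 lists to 23407 peaks, where the difference in number fell from 4 to 1.5. Without del-cIDR library 2 it was also 1.5, and without del-cIDR library 1 it was 6.5. The difference in covered length, 2.37 kb with all libraries, was 1.30 kb without del-cIDR library 2 and 1.15 kb with lists of equal length. By percentile of −log10 p, 2 of the 3 shared H3K27ac regions stood lower in both del-cIDR libraries and 0 higher. This measure was chosen after the values were seen. Among other shared regions of chromosomes 11 and 15, 22.0% and 24.1% stood lower, and 21.15% and 25.49% stood higher. The HoxB region had 76.0, 70.4, 89.1 and 90.2, and chr15:102949585-102951030 had 59.9, 47.6, 70.6 and 68.0. By covered bases 0 of the 3 stood lower and 1 higher. For neither measure was the share over all shared H3K27ac regions computed, so these counts cannot be set beside it.

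Regions called in both libraries of 1 genotype and neither of the other were few. For H3K4me3 there were 3 such WT regions (5.66% of 53, beside 2.84% of all regions) and 0 such del-cIDR regions, beside 2.08% of all regions. In HoxB, chr11:96090481-96091157 had folds of 3.44 and 4.27 and −log10 q of 3.78 and 6.26 in WT, and chr11:96245291-96245766 had folds of 6.11 and 5.12 and −log10 q of 9.78 and 7.29. In HoxD, chr2:74583030-74583853 had folds of 4.76 and 6.21 and −log10 q of 4.08 and 6.81. All 3 are weak beside the median of 31.7 to 34.9 elsewhere. For H3K27ac the 1 del-cIDR region (8.33% of 12, beside 6.42% of all regions) was chr11:96093763-96094569 in HoxB, with 807 and 486 bp covered, folds of 4.41 and 4.62 and −log10 q of 3.34 and 3.68, under the medians of 5.85 and 5.89 elsewhere in those lists. A minimum −log10 q of 5 removed it, and chr6:52135331-52136110 in HoxA then became the 1 del-cIDR region, since its WT library 2 peak had 4.72. The H3K4me3 region around the HoxB site, chr11:96093670-96094866, was called in 3 libraries, all but WT library 2. No H3K27ac region was found in WT alone, beside 1.83% of all regions.

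The height of the shared H3K4me3 regions was compared through the percentile of −log10 p in each library, a measure chosen after the values were seen. Of the 38 regions, 14 (36.8%) stood lower in both del-cIDR libraries than in both WT libraries, beside 25.3% of all 16093 shared regions, and 5 (13.2%) stood higher, beside 24.5%. HoxD held 7 of the 14: 7 of its 10 regions were lower in del-cIDR and 1 higher. HoxA had 5 of 11 lower and 1 higher, HoxB 1 of 4 each way, and HoxC 1 of 13 lower and 2 higher. By fold percentile, 13 of the 38 were lower in both del-cIDR libraries, beside 19.4% of all, and 5 higher, also beside 19.4%. By covered bases, 11 were lower, beside 21.7%, and 3 higher, beside 18.1%. HoxD had 6 of 10 lower by fold and 3 of 10 by covered bases.

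The median percentile of the 10 HoxD regions was 16.4 and 12.6 in del-cIDR and 31.1 and 27.4 in WT, a difference of -14.8 points (exact permutation p = 0.333, n = 2 per group). The 4 libraries did not overlap, and both del-cIDR values lay below 20. By region, as the mean del-cIDR minus the mean WT percentile, the median difference was -11.1 points. In the 1268 other shared regions of chromosome 2 the medians were 52.3, 52.3, 52.7 and 52.0, and 22.2% were lower in both del-cIDR libraries. Their median difference by region was 0.261 points. For HoxA the medians were 24.7, 27, 34.3 and 34.9, a difference of -8.73 points (exact permutation p = 0.333, n = 2 per group). Here the rest of chromosome 6 moved the same way: 54.6% of its 811 other shared regions were lower in both del-cIDR libraries. Their medians were 46.5, 45.9, 50.9 and 50.4. By region, the median difference was -4.6 points in HoxA and -4.0 points in these others, so the 2 were close. The part of chromosome 6 in the HoxA difference was not tested. HoxB (22.0, 30.3, 28.3 and 30.2) and HoxC (25, 19.6, 26.6 and 22.8) overlapped between genotypes (exact permutation p = 1 and 0.667, n = 2 per group).

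The 7 HoxD regions that stood lower in del-cIDR included 6 neighbours that ran without a break from 51.8 to 97.0 kb from the low-numbered edge. At the 3 longest, percentiles were 19.4, 14.8, 32.9 and 34.7 for chr2:74512119-74513888, 21.1, 23.8, 31.7 and 36.2 for chr2:74557514-74558922, and 37.5, 37.7, 47.9 and 40.9 for chr2:74527844-74529337. In each of the 3 both del-cIDR libraries were below both WT libraries, most narrowly at the last. A further 3 are given after their values were seen. The seventh, chr2:74593074-74594266, 16.3 kb from the edge and the strongest of the cluster in WT, had percentiles of 32.8, 29.7, 50.02 and 49.4, with folds of 9.92, 9.58, 12.2 and 11.7. At chr2:74521500-74522568 the percentiles were 4.69, 7.67, 26.2 and 23.7, with 611, 461, 1064 and 860 bp covered. The 1 region that stood higher in del-cIDR, chr2:74505601-74506183, had percentiles of 13.5, 1.18, 0.705 and 0.929, so that only del-cIDR library 1 was clearly apart. At the strongest HoxB region, chr11:96141856-96143807, both del-cIDR percentiles lay slightly above both WT percentiles, and this is the 1 HoxB region that stood higher.

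**Figure D4:**
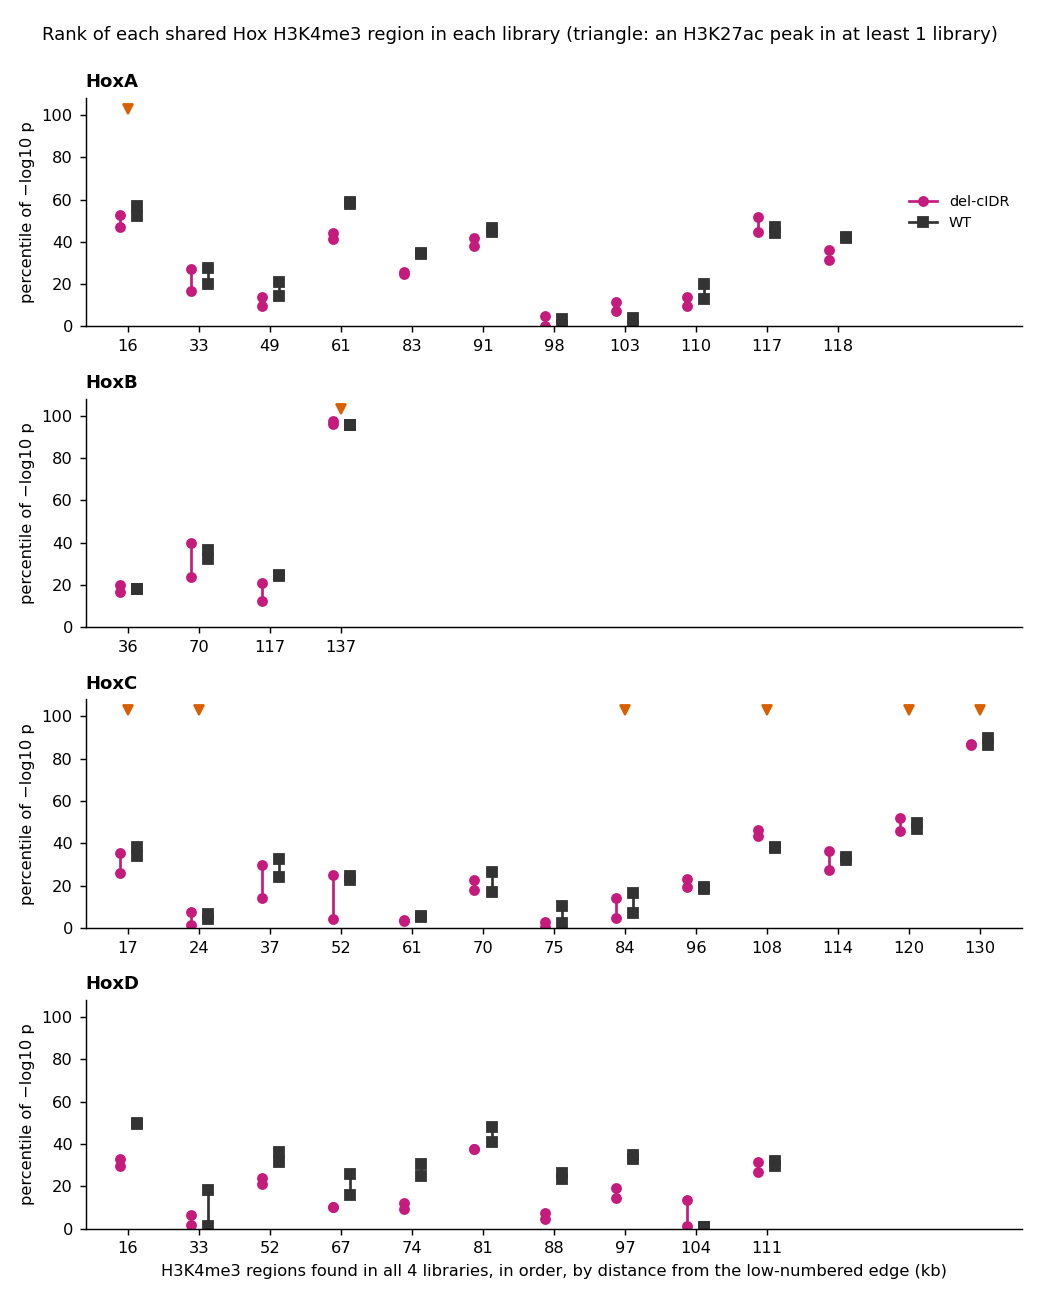
For each H3K4me3 region found in all 4 libraries, in order from the low-numbered edge (horizontal axis, distance in kb), the vertical axis gives its percentile of −log10 p among 16093 shared regions; circles are the 2 del-cIDR libraries, squares the 2 WT libraries, a line joins the 2 of a genotype, and a triangle marks an H3K27ac peak in at least 1 library. In HoxD 7 of 10 pairs of circles lie under both squares, and no triangle appears.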

How the data were processed

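The 12 deposited lists are the submitters' own peak calls, one per library, made per the labels' protocols from CUT&Tag and CUT&RUN kits. The submitters' processing notes name fastp, BWA, SAMtools, Picard, MACS2, featureCounts and the build GRCm39, without versions; for peak settings, controls and blacklist filters, the sources used here give nothing. The values used are positions, the authors' fold enrichment (a ratio) and the authors' −log10 p and −log10 q, deposited per peak. The deposited peak score was not used. No peak had −log10 q under 1.30 (H3K4me3, H3K27ac) or 1.00 (H3K9me3). Folds and −log10 values are specific to a list and grow with depth, so the genotypes were compared by presence, covered bases and percentile ranks, and folds and −log10 q are given per library as a description.

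Peaks on the assembled chromosomes (2721 Mb, by the furthest peak ends) were merged across the 4 libraries of a mark where they shared at least 1 bp. Groups of 2 were compared by the exact two-sided permutation test, and Hox windows with the genome by exact sign flips over 4 libraries. Code was tested on simulated peaks. Work used Python 3.11.15, numpy 2.4.6 and pandas 2.3.3. The windows, members and lists were chosen with earlier results of these data known. Named regions are the 3 per cluster and mark with the most libraries and then the largest mean covered length, every genotype-specific region, and those stated as chosen later. No region exceeded 4 kb. Gene lists planned for cofactors, Polycomb subunits and stem cell markers were not used here, since the gene table is on GRCm38.p6; the labelled cell type was therefore not checked against its markers. Alternatives are a minimum −log10 q of 5, lists of equal length, at least 50% overlap, merging within 1000 bp, and leaving out each library.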

Additional observations from a re-analysis of the deposited data

How the results depend on the processing

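Of 167 values under the alternatives, 143 were counted as kept, 24 as moved and 0 as reversed. A difference counted as kept when its sign held, whatever its size. A count or share counted as kept within a set ratio and could not reverse by construction. Values with the replicate number as a block repeat the main differences and always counted as kept. The tally therefore does not measure how stable the sizes are. Raising the minimum −log10 q to 5 left 1 of the 3 WT-only H3K4me3 regions, gave differences of 0 for the number and length of H3K9me3 peaks and lowered the share of H3K4me3 regions with H3K27ac from 20.8% to 12.5%. With lists of equal length that share was 13.7% and no H3K27ac region was specific to del-cIDR (0 against 1). Where peaks had to cover at least 50% of a region the share was 11.3%, and 2 H3K27ac regions and 1 H3K9me3 region were del-cIDR-only. Under these settings neither the genotype-only shares over all regions nor the H3K27ac share elsewhere was computed. Covered bases in place of −log10 p gave 30.0% of HoxD regions lower in del-cIDR, against 70.0%. The cause of these shifts was not tested, other than the fewer peaks or stricter overlap each setting leaves by construction.

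Leaving out 1 library at a time gave 0 to 1 del-cIDR-only and 3 to 7 WT-only H3K4me3 regions, 1 to 6 del-cIDR-only and 0 to 1 WT-only H3K27ac regions, and 0 to 1 del-cIDR-only H3K9me3 regions. With 1 library fewer these patterns are easier to meet by construction. Their shares over all regions were not computed for these settings, so the counts cannot be set beside the genome. The highest of the WT-only counts came without WT library 2 and the highest del-cIDR-only H3K27ac count without del-cIDR library 1, where 1 library stands for its genotype. The share with H3K27ac ranged from 13.5% (without del-cIDR library 2) to 22.0%, and the share elsewhere was not computed for these settings. The share of shared regions lower in del-cIDR ranged from 48.7% to 57.9% over all windows (36.8% with all libraries) and from 70.0% to 90.0% in HoxD. With 1 library fewer this condition is easier to meet by construction, and over all shared regions of the genome it held for 37.2% to 38.1%, against 25.3% with all libraries. The difference in H3K4me3 covered length was -2.45 kb without del-cIDR library 1 and -7.71 kb without del-cIDR library 2. The difference in H3K27ac number was 6.5 and 1.5 peaks without those libraries, and 2 when only peaks at shared H3K4me3 regions were counted, an alternative added after seeing the data, as were all those on percentiles.

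With the replicate number as a block, the differences were the same (-6 H3K4me3 peaks and -5.08 kb, 4 H3K27ac peaks and 2.37 kb, 1 H3K9me3 peak and 0.545 kb) and the exact sign-flip p was 0.5, the smallest that 2 pairs allow, or 1 for the H3K9me3 number. Deviations of same-numbered libraries correlated at 0.017, 0.0080 and 0.015 for H3K4me3, H3K27ac and H3K9me3. These are deviations of percentiles within each list, so they cannot show an effect on a whole list, such as its depth. Whether same-numbered libraries were handled together is not said in the labels. Requiring at least 50% of a peak to lie inside the window changed no value. Depth is unknown, so a missing peak does not show a missing mark.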
